A study of Bombyx mori with 4 samples.

Results

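The translation factors and tRNA synthetases measured here were 27 genes, covered by 64 probes from 33 expressed sequence tags (ESTs, partial cDNA sequences), among 838 gene symbols that the annotation used gives to silkworm probes. They were taken from the annotation of the array by the wording of the human gene description, namely translation initiation, elongation or termination factor, tRNA synthetase, or poly(A) binding protein, leaving out mitochondrial proteins and descriptions with kinase or ubiquitin. The 27 genes were 12 initiation factors, 4 elongation factors, 1 termination factor, 1 nuclear poly(A) binding protein and 9 synthetases. Each name is that of a human homolog of the silkworm EST, and 1999 of the 12981 annotation entries were used, so family members under other entries were not analysed here. RNA came from the testis of Bombyx mori larvae of strain o751 on day 3 of the fifth instar, either op (translucent) mutants or wild type, both reared on fresh mulberry leaves. The microarray screen asked which transcripts differ in op, a mutant with low uric acid and a translucent skin, whose causative gene was not known. Each genotype had 2 samples on 1-color arrays of a single slide, and the labels do not say whether the samples came from separate animals, so p-values measure only the spread between these samples. The methods also give a larger number per genotype, and the arrays used here are those with files.

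Protein synthesis starts when initiation factors bring the initiator tRNA and the mRNA to the small ribosomal subunit. Elongation factors then deliver each charged tRNA and move the ribosome along, and a termination factor releases the chain at a stop codon. The aminoacyl-tRNA synthetases load each tRNA with its amino acid. In a testis at this stage, dividing and growing germ cells and their supporting cells all use this machinery, and whole-testis RNA cannot tell fewer cells of a type from less RNA per cell.

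The values are processed signals, which are spot intensities after background subtraction, put on the log2 scale minus the 75th percentile of the array. A value of 0 is thus the level of a probe at that percentile, and values of different probes do not rank genes by abundance. The 75th percentile ranged from 503.8 to 640.4 over the 4 arrays, and 67.8% to 72.3% of the 43803 probes were well above background. Of the 64 member probes, 63 or 64 were well above background on each array, and 63 probes of 26 genes were tested. The gene not tested was EIF5A, a factor with the modified amino acid hypusine that helps the ribosome through difficult stretches. Its single probe, Ka00685_111, had a processed signal of 8.76 and 11.3 on op replicates 1 and 2 and of 10.05 and 2.86 on wild type replicates 1 and 2, and was well above background on 1 wild type array alone. No difference is given for it.

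No translation gene passed the test between op and wild type. With limma and Benjamini-Hochberg adjustment, 0 of 26 genes and 0 of 63 probes had an adjusted p under 0.05. Over everything tested, 0.320% of the 29394 gene or probe values were called at the gene level and 0.316% of the 30376 probes, so a count of 0 is close to that background. At an unadjusted p under 0.05, 1 of 26 genes passed, SARS, against 18.6% of all values, and 1 of 63 probes, against 18.7%. On the same values, the methods' t-test passed 2 genes unadjusted and 0 after adjustment. The smallest two-sided p that exact permutation of these 4 arrays allows is 0.333.

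The 95% intervals give the range of ratios that these arrays allow. The fitted ratio of op to wild type ran from 0.738 for RARS to 1.43 for SARS. For 23 of 26 genes the 95% interval of that ratio lay within 2-fold in either direction, and for 10 it lay within 1.5-fold. The interval left out a ratio of 1 for SARS alone, before any adjustment for the number of tests. The standard error was 0.15 to 0.40 on the log2 scale, and the smallest difference called anywhere in the gene-level fit was 1.74, while the members' differences reached 0.52. The plot of differences with their intervals shows initiation factors, elongation factors and synthetases on both sides of 0.

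**Figure D1:**
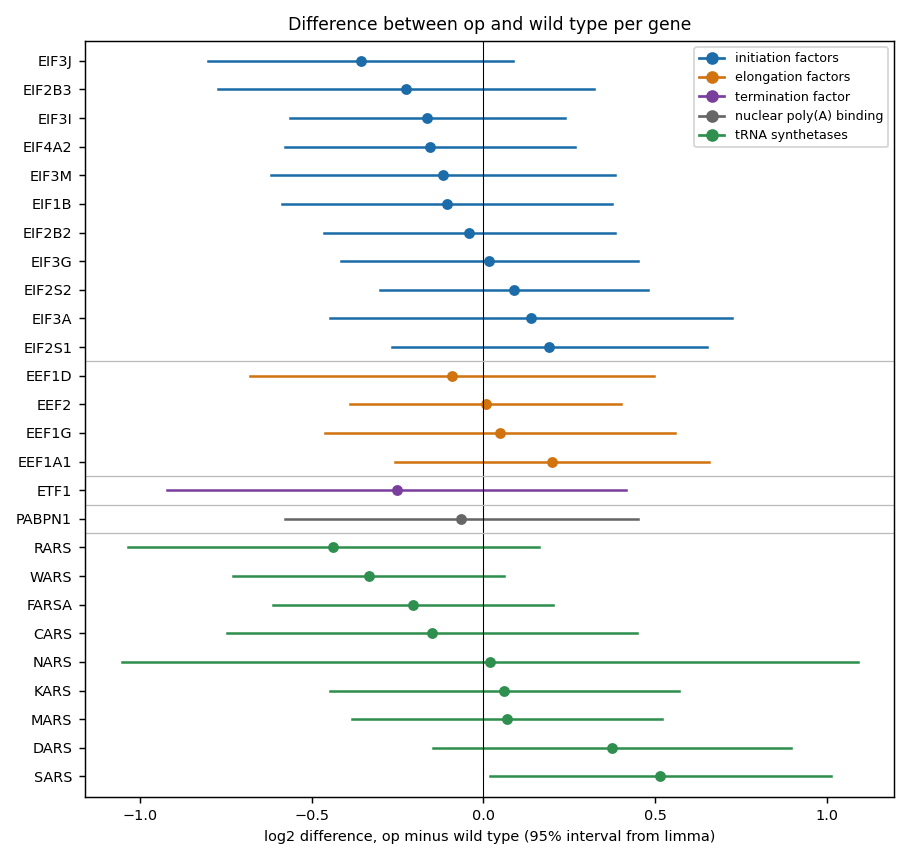
The horizontal axis is the log2 difference, op minus wild type, of the 26 tested genes, with the limma 95% interval as a line, and genes are grouped by role. Only the interval of SARS, with a difference of 0.52, does not reach 0.

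As a group, the 26 genes had a median log2 difference of -0.05, beside 0.03 over all values tested. The 11 initiation factors had a median of -0.11, the 4 elongation factors 0.03 and the 9 synthetases 0.02. The mean was lower in op for 14 of 26 genes, beside 46.8% of all values. Scaling to the array median or leaving arrays unscaled shifted every difference by about -0.095, so that 21 of 26 genes were lower, beside 56.9% and 57.0% of all values. Quantile normalization gave 20 of 26, beside 53.4%. With array medians, the medians of elongation factors and synthetases were below 0, at -0.07 and -0.08, beside -0.06 over all values. Both op arrays lay above both wild type arrays for 5 genes, 19.2% of those tested, beside 28.8% of all values. Both lay below for 6 genes, 23.1%, beside 24.9% of all values. The replicate values of the remaining 15 genes overlapped.

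**Figure D2:**
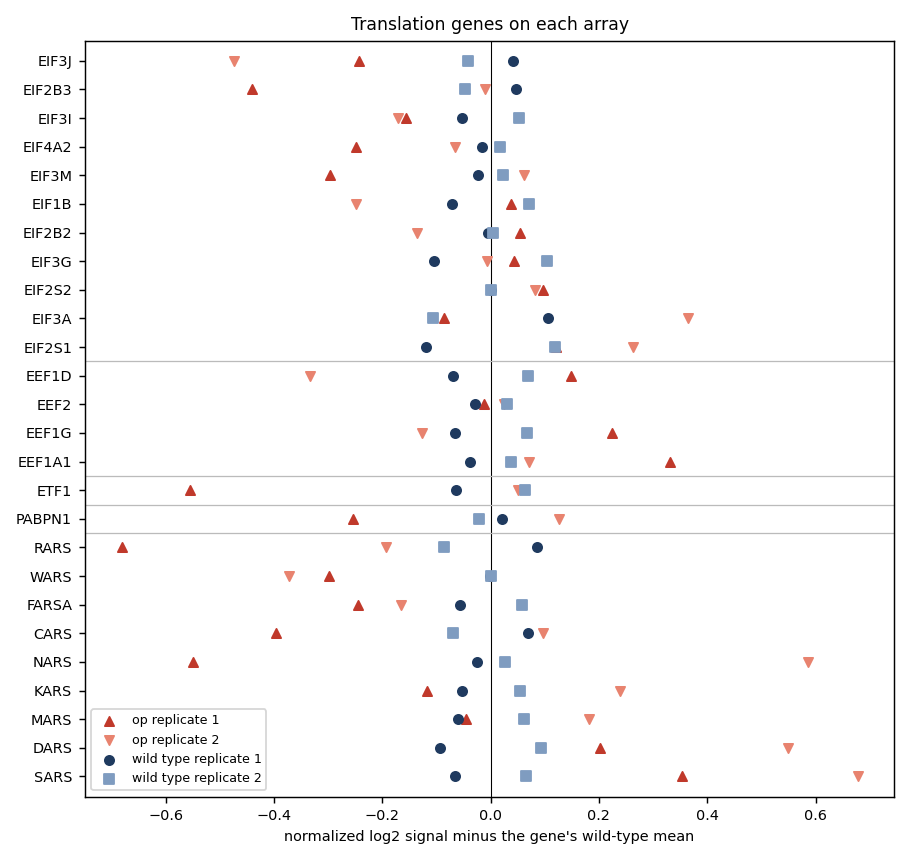
Each row is 1 of the 26 tested genes, in role groups from initiation factors at the top to synthetases at the bottom, and the horizontal axis is the normalized log2 signal minus the mean of the 2 wild type arrays of that gene. Triangles are op replicates and the dark circle and light square are wild type replicates; for EIF2S1 the marker of op replicate 1 lies under that of wild type replicate 2.

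Of 11 initiation factors, 3 (27.3%) had both op arrays below wild type and 2 (18.2%) both above, against 24.9% and 28.8% of all values, so neither share stands out from the array as a whole. EIF3J, a loosely bound subunit of eIF3 that sits in the decoding site of the small subunit, had a normalized log2 signal of 0.24 and 0.01 on op replicates 1 and 2 and of 0.52 and 0.44 on the wild type replicates. Its op arrays were both the low ones, and their gap of 0.23 was smaller than the difference between genotypes of -0.36 ± 0.17 (SE, n = 2 per genotype, limma adjusted p = 0.343). EIF3I, a WD-repeat subunit of the same complex, had 2.93 and 2.91 in op, against 3.03 and 3.14 in wild type, with a difference of -0.16 ± 0.15 (SE, limma adjusted p = 0.604). EIF4A2, the RNA helicase that unwinds the start of the mRNA, had 4.58 and 4.76 in op, against 4.81 and 4.85 in wild type. The difference of EIF4A2 was -0.16 ± 0.16 (SE, limma adjusted p = 0.633), and op replicate 2 came within 0.05 of wild type replicate 1.

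The subunits of eIF2, which carries the initiator tRNA, lay the other way. EIF2S1, the alpha subunit whose phosphorylation under stress lowers initiation, had 3.19 and 3.34 in op, against 2.95 and 3.19 in wild type. Its op replicate 1 and wild type replicate 2 were level to 2 decimals, and the difference was 0.19 ± 0.17 (SE, limma adjusted p = 0.596). EIF2S2, the beta subunit, had 4.21 and 4.20 in op, against 4.11 and 4.11 in wild type. These arrays agreed closely within each genotype, and the difference was 0.09 ± 0.15 (SE, limma adjusted p = 0.77), which was -0.013 with quantile normalization and also below 0 with array-median or no scaling. The subunits of eIF2B, the exchange factor that recharges eIF2 with GTP, were EIF2B2 at -0.04 and EIF2B3 at -0.23, with overlapping arrays for both.

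Within eIF3, the large scaffold that joins the small subunit to the mRNA, the 5 measured subunits had a median difference of -0.12. The subunits not yet given had overlapping arrays and differences of 0.14 for EIF3A, -0.12 for EIF3M and 0.02 for EIF3G. EIF1B, a relative of the factor that checks the start codon, had a difference of -0.11, again with overlapping arrays. Over all 11 initiation factors the differences ran from -0.36 to 0.19, and their limma adjusted p from 0.343 for EIF3J to 0.962 for EIF3G.

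The elongation factors differed by -0.09 to 0.20 between the genotypes. EEF1A1, which delivers charged tRNA to the ribosome, had 2.68 and 2.42 on the op arrays and 2.31 and 2.39 on the wild type arrays. Both op arrays were above wild type, op replicate 2 by 0.03, and the difference was 0.20 ± 0.17 (SE, limma adjusted p = 0.579). EEF1D, a subunit of the complex that reloads EEF1A1 with GTP, had 2.36 and 1.87 in op, against 2.14 and 2.28 in wild type. Its op replicates were the highest and the lowest of the 4 arrays, and the difference was -0.09. EEF1G, another subunit of that complex, differed by 0.05 with overlapping arrays. EEF2, which moves the ribosome by 1 codon, had 3.49 and 3.53 in op, against 3.47 and 3.53 in wild type, and its gene-level difference was 0.01 ± 0.15 (SE, limma adjusted p = 0.984).

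The even gene-level value of EEF2 averaged probes with opposite signs, and what each probe hybridizes to was not checked here. Probe Ka01733_358 had a normalized log2 signal of 4.75 and 4.54 on op replicates 1 and 2 and of 4.86 and 5.03 on the wild type replicates. Its neighbor Ka01733_391, from the same EST, had 3.73 and 4.15 in op, against 3.60 and 3.50 in wild type. Both op arrays were thus below wild type for the former, with a difference of -0.30, and above for the latter, with 0.40. In another EEF2 EST, probe Ka02622_212 had 1.12 and 0.89 in op, against 0.56 and 0.68 in wild type. Its companion Ka02622_901 had 3.07 and 3.15 in op, against 3.35 and 3.44 in wild type. The op arrays were again the high pair on the former, with a difference of 0.39, and the low pair on the latter, with -0.29. No EEF2 probe passed the limma test after adjustment, with adjusted p from 0.320 to 0.988. The probes of Ka02726, the remaining EEF2 EST, had differences of 0.01 and -0.16.

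**Figure D3:**
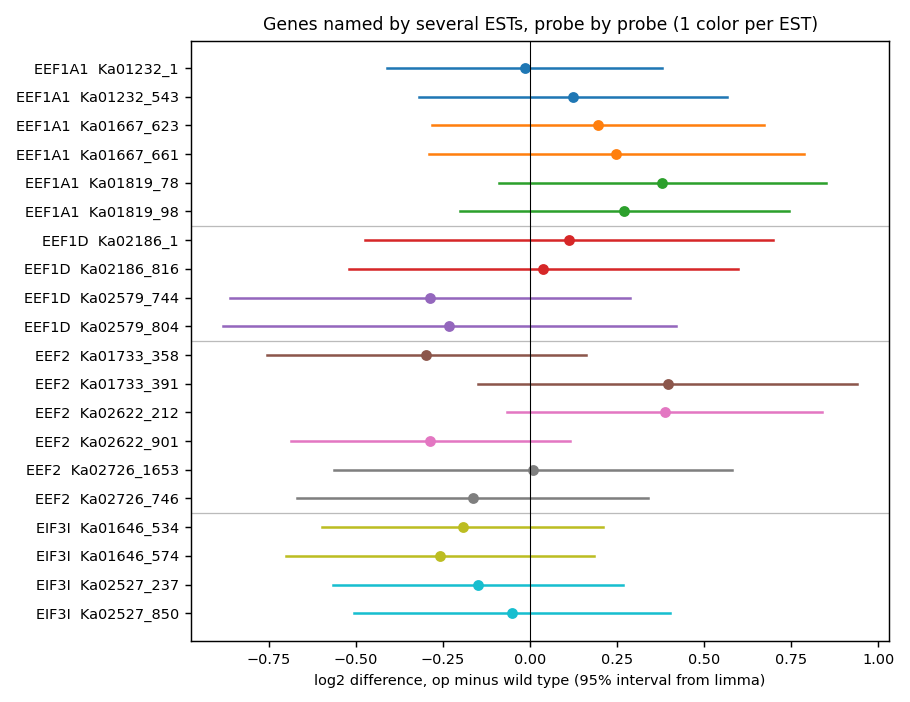
Each row is a probe of EEF1A1, EEF1D, EEF2 or EIF3I, the genes named by more than 1 EST, with a color for each EST, and the horizontal axis is the log2 difference, op minus wild type, with the limma 95% interval as a line. Probes of EEF2 lie on both sides of 0 within Ka01733 (-0.30 and 0.40) and within Ka02622 (0.39 and -0.29), while the 4 EIF3I probes are all below 0.

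Probes of the other genes named by several ESTs lay closer together within an EST. For EEF1A1 the ESTs Ka01232, Ka01667 and Ka01819 had differences of 0.05, 0.22 and 0.33. The EEF1D ESTs were Ka02186 at 0.07 and Ka02579 at -0.26, so that the sign of EEF1D depended on the EST. For EIF3I the ESTs Ka01646 and Ka02527 had -0.23 and -0.10. Whether such ESTs are separate silkworm genes or pieces of the same transcript was not tested. Over all pairs of probes from the same EST, 23 of 31 had the same sign, the median gap in the log2 difference was 0.067, and 28 had a gap under 0.2. The widest gap was 0.69, between the Ka01733 probes of EEF2.

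ETF1, the release factor that reads stop codons, had a difference of -0.25 ± 0.25 (SE, limma adjusted p = 0.628). It was 2.06 on op replicate 1 and between 2.55 and 2.68 on the other 3 arrays, so the lower op mean came from a single array. PABPN1, which binds the growing poly(A) tail in the nucleus and sets its length, differed by -0.06 with overlapping arrays.

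The synthetases held both ends of the range. SARS, which charges tRNA with serine, had a normalized log2 signal of 2.58 and 2.90 on op replicates 1 and 2 and of 2.16 and 2.29 on the wild type replicates. Both op arrays were above wild type, and the difference was 0.52 ± 0.19 (SE, limma adjusted p = 0.259). Its probes, Ka01654_1319 and Ka01654_1456, had nearly equal differences of 0.53 and 0.51. DARS, the aspartate enzyme, had 3.12 and 3.47 in op, against 2.83 and 3.01 in wild type, with a difference of 0.38 ± 0.20 (SE, limma adjusted p = 0.383). The gap between the op arrays of DARS, 0.35, was nearly as wide as that.

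At the low end, RARS, the arginine enzyme, had -1.93 and -1.44 in op, against -1.17 and -1.34 in wild type. Both op arrays were below wild type, but the op replicates were 0.49 apart and the difference was -0.44 ± 0.23 (SE, limma adjusted p = 0.378). WARS, the tryptophan enzyme, had 3.19 and 3.11 in op, against 3.48 and 3.48 in wild type. It was the synthetase with the tightest replicates in both genotypes, and its difference was -0.33 ± 0.15 (SE, limma adjusted p = 0.322). FARSA, the catalytic subunit for phenylalanine, had -0.46 and -0.38 in op, against -0.28 and -0.16 in wild type, with a difference of -0.21 ± 0.15 (SE, limma adjusted p = 0.526).

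Differences of the other synthetases were -0.15 for CARS (cysteine), 0.07 for MARS (methionine), 0.06 for KARS (lysine) and 0.02 for NARS (asparagine), all with overlapping arrays. The CARS value averaged probes that disagreed, Ka01277_573 at 0.03 and Ka01277_644 at -0.33, the widest gap within an EST outside EEF2. Probe Ka01277_573 had -4.32 and -4.06 in op, against -4.18 and -4.27 in wild type, and Ka01277_644 had -4.01 and -3.28, against -3.21 and -3.40. Probe Ka01277_573 was dim, with processed signals of 25.2 to 38.2 over the arrays. The lowest signal flagged well above background was 8.12 to 10.8, depending on the array. NARS, with 1 probe, had the least certain value, at -4.98 and -3.85 in op, against -4.46 and -4.41 in wild type. The NARS probe was dim too, with processed signals of 15.9 and 44.4 in op and of 29.1 and 27.0 in wild type. The op replicates of NARS were the lowest and the highest array, and the 95% interval of its ratio ran from 0.482 to 2.13. DARS, RARS, MARS and KARS, which in human cells sit together in the multi-synthetase complex, were spread from -0.44 to 0.38. Of these, 3 of 4 were positive, beside 15635 of all 29394 values. MARS and KARS were below 0 with array-median scaling, at -0.027 and -0.034. Both op arrays lay above wild type for 2 of 9 synthetases, SARS and DARS, or 22.2%, beside 28.8% of all values. Both lay below for 3, RARS, WARS and FARSA, or 33.3%, beside 24.9%, and none of these genes passed the adjusted test.

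The op replicates of the translation genes were uneven. The gap between op replicates was larger than the difference between genotypes in 18 of 26 genes, or 69.2%, beside 54.0% of all values. A gap between single arrays also varies more than a difference of means. The SD was larger in op than in wild type in 21 of 26, or 80.8%, beside 72.3% of all values. In 8 of 9 synthetases op replicate 1 was below op replicate 2, with a median gap of -0.35, WARS being the exception at 0.07. In 3 of 4 elongation factors it was above, with a median gap of 0.31, while EEF2 had a gap of -0.04. The initiation factors were split, 5 below and 6 above, with a median of 0.01, which was also the median over all values, of which 49.1% were below. Other lists shared the side of the synthetases, with op replicate 1 below in 9 of 10 tRNA modification genes, 7 of 9 of mitochondrial translation, 14 of 19 of ribosome assembly and 6 of 8 of amino acid synthesis, and with 58.9% of all named genes below.

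Under array-median scaling, normexp correction and quantile normalization, 8, 8 and 9 of 9 synthetases had op replicate 1 below, beside 45.9%, 37.6% and 51.4% of all values, and 3 of 4 elongation factors had it above in each. Without scaling, where op replicate 1 was below in 78.1% of all values, it was below in 9 of 9 synthetases, 11 of 11 initiation factors and 2 of 4 elongation factors. Op replicate 2 was the highest of the 4 arrays for 6 of 9 synthetases, beside 29.1% of all values, and op replicate 1 was the highest for 3 of 4 elongation factors, beside 31.8%. The 35 tested cytosolic ribosomal proteins, the building blocks of the ribosome, had a median gap of 0.18, with op replicate 1 above in 27, on the same side as the elongation factors. Without scaling, the median gaps were -0.16 for the ribosomal proteins and -0.04 for the elongation factors, both above the -0.33 over all values. Between wild type replicates the same gaps were narrower, with medians of -0.11 for the synthetases and -0.10 for the elongation factors, and replicate 1 was below replicate 2 in 20 of 26 genes, beside 55.0% of all values. That count was 16 with quantile normalization, beside 50.3%, and 3 without scaling, beside 23.3%. What set the op replicates apart was not tested.

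**Figure D4:**
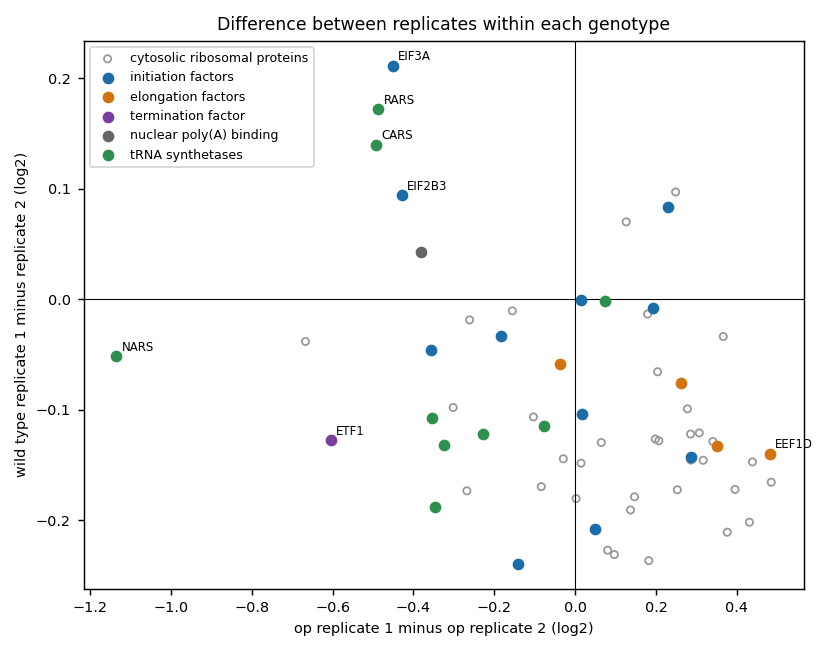
The horizontal axis is op replicate 1 minus op replicate 2 and the vertical axis wild type replicate 1 minus wild type replicate 2, both as log2 differences, with a point for each of the 26 genes in the color of its role and open circles for 35 cytosolic ribosomal proteins. The synthetases lie to the left of 0 except WARS at 0.07, and 3 of 4 elongation factors lie to the right among the ribosomal proteins; the axes have different ranges.

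The other lists of protein synthesis genes, drawn from the annotation entries used here, also held no called difference. Such genes under other entries were not examined. Of 35 tested cytosolic ribosomal proteins 0 passed the adjusted test, 29 had a positive difference and 6 a negative one, and the median was 0.21, beside -0.05 for the translation factors and synthetases. The ribosomal protein median was 0.11 with array medians and without scaling, and 0.12 with quantile normalization. Both op arrays were above wild type in 21 of the ribosomal proteins and below in 3, beside 28.8% and 24.9% of all values. In mitochondrial translation 5 of 9 genes were positive with a median of 0.05, in ribosome assembly 11 of 19 with a median of 0.03, and in tRNA modification 2 of 10 with a median of -0.10. Over all values 46.8% were negative. Apart from the ribosomal proteins, such counts were not made under other scalings. These lists share the 4 arrays with the translation factors, and the difference between lists was not tested.

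Among 6 genes that assist translation, 5 were negative, beside 46.8% of all values, with a median of -0.20. DENR, which helps recycle ribosomes and restart initiation, had a normalized log2 signal of 3.78 and 3.41 in op, against 4.03 and 4.15 in wild type, and both op arrays were below, with a limma adjusted p of 0.283. DOHH, the enzyme that completes hypusine on EIF5A, had -1.11 and -0.85 in op, against -0.67 and -0.81 in wild type, with a difference of -0.24 and a limma adjusted p of 0.523.

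**Figure D5:**
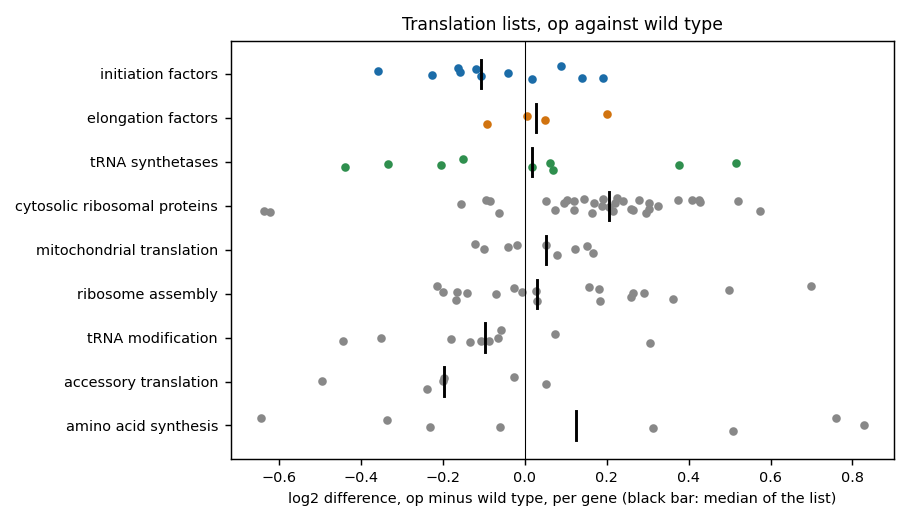
The horizontal axis is the log2 difference, op minus wild type, and each point is a gene of the list named on the left, with the black bar at the median of the list; points are spread vertically to keep them apart. The translation factors and synthetases lie between -0.44 and 0.52, and of the 9 lists drawn the ribosomal proteins have the highest median, 0.21.

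Germ line genes were examined along with genes of other tissues. PIWIL4 and NANOS3, which act in germ cells, were well above background with all 4 of their probes on every array. Over the arrays, 67.8% to 72.3% of all probes were as well, so detection alone does not check the tissue label. Their differences were -0.32 and -0.04, and both op arrays of PIWIL4 were below wild type. Their summed processed signal, without scaling, was 2364 and 3045 in op, against 3748 and 3247 in wild type, without overlap. The summed processed signal, without scaling, of 4 muscle genes, 2 of which, TPM3 and TMOD1, were not tested because of low signal, reached 2003 and 3425 on the op arrays, against 472 and 1256 in wild type. That of 8 fat storage genes ran from 47717 to 63924 in op and from 31651 to 34606 in wild type, without overlap, while that of 12 digestive enzyme genes overlapped, at 7280 to 9152 against 8870 to 9367. These sums are carried by the brightest probes, and single genes went both ways. In fat storage 6 of 8 differences were positive, SCD at 1.36 and GBE1 at 0.83 among them, while CIDEC was at -0.78 and PLIN4 at -0.28. Of 9 tested digestive enzyme genes 5 were negative, CPA4 at -2.07 and CPB1 at -1.13 among them, while ANPEP was at 1.94 with a limma adjusted p of 0.0656. No CPA4 probe was well above background on an op array, and no CPB1 probe on more than 1. Both genes entered the test through wild type, so their differences rest on op values near background. The ANPEP difference likewise rests on low wild type values, at -4.95 and -5.35, not far from the op values of CPB1, -5.57 and -5.59. Both muscle genes tested were positive, TPM2 at 2.25 and TNNT3 at 1.78. Of the tested genes in these lists, 2 in germ line, 2 in muscle, 8 in fat storage and 9 in digestive enzymes, 0 passed the adjusted test. The part of other tissue in the translation gene values was not tested.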

How the data were processed

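Total RNA from testis was labeled with Cy3 by the authors, hybridized to 1-color arrays of the silkworm and read with Agilent Feature Extraction 9.5. The deposited scanner files hold an intensity for each spot, already background-subtracted, and flags for background and outliers. In the deposited normalized table the values are log2, set to each array's 75th percentile and centered by probe, as found from the values themselves. They served as an alternative.

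The processed signal was taken to log2 here, and the array's own 75th percentile was subtracted. Control spots (1417 per array) and outlier spots (2 to 4 per array) were left out, and 0 spots were saturated. Probes entered the test if both arrays of either genotype were well above background, as 30376 of 43803 were. Probes of a gene symbol were averaged, and each tested probe without a symbol kept its own value, giving 29394 values. Op was compared with wild type in R 4.3.3 with limma 3.58.1 (lmFit, eBayes, two-sided), and p-values were adjusted by Benjamini-Hochberg over all of these values, with a threshold of 0.05. The procedure was tested on simulated data, with planted differences larger than any member's and the same spread in both genotypes. That simulation does not show how differences of the members' size would be found. Precision is limited by having 2 arrays per genotype.

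The members and gene lists were chosen with earlier results of these data known. All members may be named, with values per array for those whose genotypes did not overlap, those with several ESTs and those whose probes disagreed, and the DENR, DOHH, ETF1, NARS and CARS values and those of the marker genes named were added after they were seen. Alternatives were other scalings, normexp background correction with an offset of 50 on the median spot signal, the deposited values, other filters on dim probes and outliers, other variance models, a replicate block, the methods' t-test, other ways to combine probes, and leaving out each array.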

Additional observations from a re-analysis of the deposited data

How the results depend on the processing

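No translation gene or probe was called under any alternative, and with all 4 arrays in the fit the lowest adjusted p of any gene was 0.172, for SARS. Without 1 array a genotype has a single array, assumed to vary like the other genotype, and the lowest values there were 0.0772 for RARS without op replicate 2 and 0.0797 for SARS without op replicate 1. Over all its alternatives the adjusted p of SARS reached 0.925. With the replicate number as a block, 0 genes and 0 probes were called and the adjusted p of SARS was 0.376. The labels do not say that a number pairs arrays, and arrays of the same number deviated from their group means with a correlation of -0.030 over 30371 probes and of -0.37 over the 63 member probes. The block moved the calls over all gene-level values from 94 to 696, none of them among the translation genes tested here. Most of these values have no gene name in the annotation used.

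The sign of the difference held under every alternative for 11 of 26 genes: SARS, DARS, EEF1A1 and EIF2S1 (higher in op) and RARS, WARS, FARSA, EIF3J, EIF3I, EIF4A2 and EIF2B3 (lower). Leaving out 1 array moved 6 of these by over 1.5 times. Without op replicate 1 it was -0.011 for EIF2B3, -0.19 for RARS, 0.070 for EEF1A1 and -0.065 for EIF4A2. Without op replicate 2 it was 0.20 for DARS, 0.12 for EIF2S1, 0.33 for EEF1A1, -0.68 for RARS, -0.44 for EIF2B3 and -0.25 for EIF4A2. Without wild type replicate 1 it was 0.072 for EIF2S1, and without wild type replicate 2 it was 0.31. The other 15 genes turned in at least 1 alternative. Array-median and no scaling shift every difference by -0.095 and -0.096, so genes nearer 0 than that on the positive side turn by construction. For the other alternatives the cause was not tested. With arrays scaled to their median, the log2 difference was -0.046 for EEF1G, -0.088 for EEF2, -0.0050 for EIF2S2, -0.077 for EIF3G, -0.034 for KARS, -0.027 for MARS and -0.077 for NARS, and the medians were -0.15 for all members, -0.20 for initiation factors and -0.067 for elongation factors. With no scaling it was -0.047 for EEF1G, -0.089 for EEF2, -0.0065 for EIF2S2, -0.079 for EIF3G, -0.035 for KARS, -0.028 for MARS and -0.078 for NARS, and these medians were -0.15, -0.20 and -0.068. Quantile normalization gave -0.0035 for EEF1G, -0.038 for EEF2, -0.013 for EIF2S2, -0.046 for EIF3G, -0.039 for MARS and -0.13 for NARS. Normexp gave 0.00040 for CARS, -0.011 for EEF2 and 0.011 for EIF2B2. The brightest probe gave 0.038 for EEF1D, -0.16 for EEF2, 0.022 for EIF2B2 and -0.0052 for EIF3G. EST Ka02186 alone gave 0.075 for EEF1D, and EST Ka02726 alone -0.079 for EEF2.

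Leaving out 1 array at a time gave ranges of -0.40 to 0.097 for CARS, -0.33 to 0.15 for EEF1D, -0.13 to 0.22 for EEF1G, -0.023 to 0.036 for EEF2, -0.25 to 0.037 for EIF1B, -0.14 to 0.055 for EIF2B2, -0.086 to 0.37 for EIF3A, -0.086 to 0.12 for EIF3G, -0.30 to 0.061 for EIF3M, -0.55 to 0.050 for ETF1, -0.12 to 0.24 for KARS, -0.046 to 0.18 for MARS, -0.55 to 0.59 for NARS and -0.25 to 0.13 for PABPN1. The medians then ran from -0.14 to -0.011 for initiation factors, -0.050 to 0.19 for elongation factors and -0.24 to 0.18 for synthetases, both ends of the last coming from leaving out an op array.

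With 2 arrays per genotype, differences of the size seen here did not pass the adjusted test. Over all gene-level values, normexp and the trend and robust fit called 391 and 447 in place of 94, quantile normalization 15, no scaling 44, probes well above background on all arrays 52, array weights 54, no filter on dim probes 0, the methods' t-test 0, and fits without 1 array 62 to 2224.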

Other observations

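Amino acid synthesis genes, which supply the substrates of the synthetases, were spread more widely than the synthetases themselves. Of 8 such genes, 4 had a positive and 4 a negative difference, beside 46.8% negative over all values, and the median was 0.13. In the adjusted test 0 passed, beside 0.320% of all values. At an unadjusted limma p under 0.05, 1 passed, PSAT1, beside 18.6% of all values. PSAT1, which makes the precursor of serine, had a normalized log2 signal of -2.50 and -2.09 on op replicates 1 and 2 and of -3.23 and -3.01 on the wild type replicates. Both op arrays were above wild type, and the difference was 0.83 ± 0.21 (SE, n = 2 per genotype, limma adjusted p = 0.173). PHGDH, at the start of the same pathway, had a difference of -0.23 with overlapping arrays. CTH, which forms cysteine, had 2.43 and 3.19 in op, against 2.07 and 2.02 in wild type, with a limma adjusted p of 0.272. ASNS, which makes asparagine, had a difference of 0.31, and ALDH18A1, at the start of proline synthesis, one of -0.64, with both op arrays below wild type. Differences of the synthetases for serine, cysteine and asparagine were 0.52, -0.15 and 0.02.

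Within ribosome assembly, NOP58 and NOLC1, both proteins of the nucleolus, had differences of 0.70 and 0.50 with limma adjusted p of 0.176 and 0.245. Of the ribosomal proteins, RPS4X and RPL23 had differences of 0.57 and 0.52, and RPSA and RPS18 of -0.64 and -0.62, none past the adjusted test.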
